A study of Homo sapiens with 12 samples.

Results

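The autosomes of the human genome (build hg19) were divided into 50 kb tiles from position 1, and the 300 tiles with the most base pairs covered by H3K18ac regions of H1 embryonic stem cells were described. The tiles were selected on that list alone, from 57578 tiles that reach to the last listed region of each autosome. They span 15.0 Mb. H3K18ac is the acetylated form of lysine 18 in the tail of histone H3. It is placed by the paralogous acetyltransferases p300 and CBP, encoded by EP300 and CREBBP, and is found at active promoters and enhancers. Such elements lie close together where genes are dense, and gene-dense chromatin is replicated early in S phase in many cell types. BrdU is a thymidine analogue that is built into newly made DNA, so an antibody against it enriches DNA that was synthesised during labelling.

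The study holds 12 samples from 3 established cell lines, with 6 pulled-down libraries and 6 inputs that were not analysed here. BrdU-labelled DNA was sequenced from H1 cells treated with siRNAs against EP300 and CREBBP (knockdown), H1 cells treated with non-targeting siRNA (control), IMR90 (primary lung fibroblasts) and Saos-2 (osteosarcoma). Both H1 BrdU cultures, knockdown and control, also had HA 1077 at 10 µM in the medium and were harvested 72 h after transfection, whereas IMR90 and Saos-2 received no siRNA, so cell line and treatment cannot be told apart in the BrdU lists. The level of EP300 and CREBBP after knockdown was not analysed here. H3K18ac was mapped in H1 and in IMR90, both without siRNA. H1 cells were at passages 35 to 45 and IMR90 cells at passages 7 to 12. Each group has 1 library, so no difference between lists could be set against replicate error, no test was made, and every interval below is a Wilson 95% interval that covers the counting of tiles or regions only. Neighbouring tiles are not independent. The deposited lists hold regions and a score, without read counts, so sequencing depth is unknown. A region missing from a list may lie just under the authors' threshold. No gene annotation of hg19 was used, so the tiles are given by position, and the cell type labels were not checked against marker genes.

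The H1 H3K18ac values that chose the tiles are given as a description. Cover in the 300 tiles was between 3500 and 11500 bp, with a median of 4300 bp. The tiles held 3493 H1 H3K18ac regions, and the number per tile had a median of 11. They contained 9.05% of the autosomal base pairs of the list in 0.569% of the background tiles, a term used below for the 52708 tiles (the 300 included) that lie in 500 kb bins with a region of any list. The regions inside them were longer than the list at large, with a mean of 402 bp against 239 bp on all autosomes, and 9.82% measured 1000 bp or more against 2.60%. At the edge of the selection, the last 2 tiles kept (chr1:244950001-245000000 and chr2:74750001-74800000) and the first 2 left out (chr6:33750001-33800000 and chr6:90500001-90550000) all had 3500 bp. Of 29 tiles with that cover, 5 were kept and 24 left out by position, so the edge is arbitrary among them.

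The tile with most H3K18ac in H1, chr16:3050001-3100000, had 11500 bp in 18 regions. It had 3300 bp of H3K18ac in 3 regions in IMR90 and no BrdU region in any of the 4 lists. The second, chr16:85600001-85650000, had 8000 bp in H1 and 1900 bp in IMR90, and was among the tiles richest in BrdU. It held 5 BrdU regions in IMR90, 2 in Saos-2, 1 in H1 control and none in the knockdown. The third, chr17:8050001-8100000, also had 8000 bp in H1, with 2500 bp in IMR90 and a single BrdU region, in Saos-2. The tiles ranked 5 and 7, chr11:118750001-118800000 and chr6:26200001-26250000, were covered more in IMR90 than in H1. The tile ranked 5 had 13800 bp in IMR90 and 7600 bp in H1, and the tile ranked 7 had 11400 bp in IMR90 and 7400 bp in H1. Neither held a BrdU region. Of the 10 tiles with most H1 H3K18ac, 7 held a BrdU region of at least 1 list, and the other 3 are those ranked 1, 5 and 7.

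The tiles were unevenly spread over the genome. Chromosomes 1, 19, 17, 16, 9 and 11 held 166 of the 300 (55.3%), although they make up 25.6% of the background tiles. On chromosome 19, 31 of 1112 background tiles were selected (2.79%), and on chromosome 22, 15 of 684 (2.19%). Chromosome 4 contributed 2 tiles and chromosome 18 only 1. Within 5 Mb of the first or last listed region of a chromosome lay 105 of the 300 tiles (35.0%), against 8.33% of the background tiles. Most tiles stood alone (234), and 66 lay in 30 runs of adjacent tiles. The longest runs had 3 tiles. The run with most H1 H3K18ac, chr2:232450001-232600000, had 20600 bp in H1 and 9700 bp in IMR90, with 3 BrdU regions in H1 control and 2 in IMR90. The run at chr6:26150001-26300000 had 16500 bp in H1 and 26800 bp in IMR90, and a single BrdU region, in Saos-2.

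H3K18ac of IMR90 fibroblasts, which the selection did not use, was present in most of the tiles, but at very different levels. At least 1 IMR90 region lay in 272 of the 300 tiles (90.7%, 86.8 to 93.5), against 38.1% of the background tiles. IMR90 cover had a median of 2550 bp, an upper quartile of 4925 bp and a maximum of 23000 bp. Its mean, 3609 bp, was 4.88 times that of the background tiles (739 bp). The ratio was 3.64 against the other tiles within 500 kb of one of the 300, whose mean was 991 bp, and 1.59 against the next 300 tiles by rank, whose mean was 2276 bp. IMR90 covered more base pairs than H1 in 83 tiles, the same number in 4 and fewer in 213. The IMR90 list covers more of the genome than the H1 list, 39.0 against 15.4 Mb of the autosomes, so these counts compare lists of unequal extent.

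**Figure D1:**
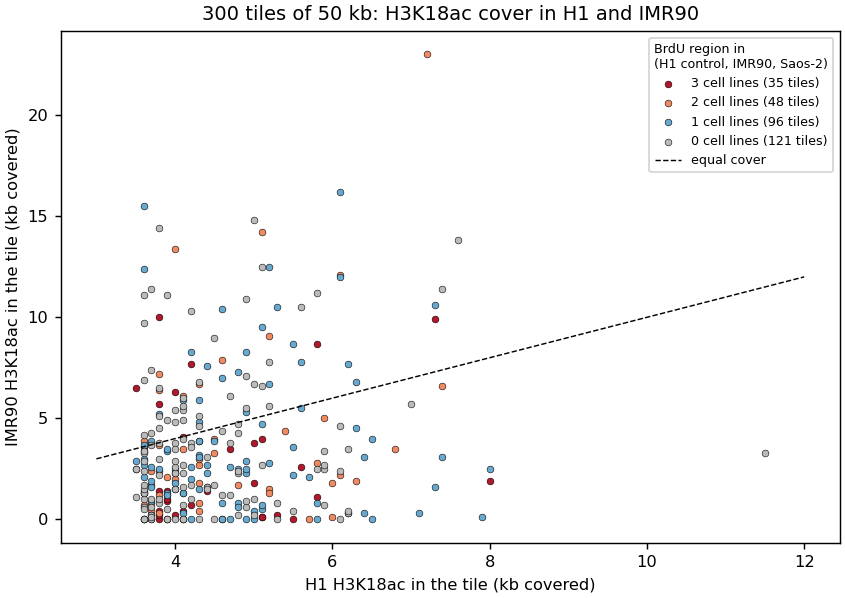
Each point is 1 of the 300 tiles, with H1 H3K18ac cover in kb on the horizontal axis and IMR90 H3K18ac cover in kb on the vertical axis; the colour gives the number of cell lines (H1 control, IMR90, Saos-2) with a BrdU region in the tile. IMR90 cover is spread from 0 to 23 kb, and 213 tiles lie under the dashed line of equal cover.

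Within the tiles the 2 lines shared part of the marked sequence. Of the H1 H3K18ac base pairs in the 300 tiles, 33.1% were also covered in IMR90, against 22.2% in the other background tiles. This has to be read against IMR90 cover, which was 7.22% of all base pairs in the 300 tiles and 1.45% in the other background tiles. Relative to that cover, the sharing was thus not higher in the 300 tiles. Counted as regions, 1124 of 3493 H1 regions in the tiles (32.2%, 30.6 to 33.7) overlapped an IMR90 region, against 19.1% on all autosomes. The H1 regions in the tiles were also longer, with means of 402 against 239 bp, and a longer region has more room to overlap. The part of length and of IMR90 cover in this difference was not tested. In the other direction, 42.6% of the IMR90 base pairs in the tiles lay in H1 regions, against 9.14% on all autosomes. The choice of tiles by H1 cover raises this share. In 8 tiles both lines had regions without a shared base pair. The most IMR90 cover was found in chr10:80900001-80950000, ranked 12, with 23000 bp in IMR90 and 7200 bp in H1, of which 5300 bp were shared. Next came chr1:156050001-156100000 (16200 bp in IMR90, 6100 bp in H1), chr17:75400001-75450000 (15500 and 3600 bp), chr11:65250001-65300000 (14800 and 5000 bp) and chr15:40350001-40400000 (14400 and 3800 bp). These 5 tiles held between 0 and 2 BrdU regions each.

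A further 28 tiles had no IMR90 H3K18ac. The densest of them in H1 was chr2:233250001-233300000, ranked 16, with 6500 bp in 8 regions and a BrdU region in H1 control alone. The tile chr1:17000001-17050000, ranked 28, had 6100 bp in 20 regions and no BrdU region in any list. On chromosome 21, the tile at 46100001 to 46150000 had 5800 bp and 1 BrdU region, in IMR90, and the tile at 44800001 to 44850000 had 5500 bp and BrdU regions in IMR90 (2), Saos-2 (1) and H1 control (1). The tile chr6:44150001-44200000 had 5700 bp and BrdU regions in Saos-2 and H1 control. The 28 tiles held BrdU regions about as often as the 272 others. IMR90 BrdU was present in 10 of the 28 tiles without IMR90 H3K18ac (35.7%, 20.7 to 54.2) and in 88 of the 272 with it (32.4%, 27.1 to 38.1). For H1 control these numbers were 9 of 28 (32.1%) and 88 of 272, and for Saos-2 they were 9 of 28 and 93 of 272 (34.2%). The knockdown list had a region in 0 of the 28, which allows a share of up to 10.7% (3 tiles of 28) and has a Wilson upper limit of 12.1%, and in 20 of the 272 (7.35%).

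BrdU regions were found in about 1 in 3 of the tiles in each of the 3 cell lines. H1 control had a region in 97 tiles (32.3%, 27.3 to 37.8), against 7.81% of the background tiles. IMR90 had one in 98 tiles (32.7%, 27.6 to 38.2), against 8.13%, and Saos-2 in 102 tiles (34.0%, 28.9 to 39.5), against 8.53%. The H1 knockdown list, the shortest of the 4 with 1662 autosomal regions, had a region in 20 tiles (6.67%, 4.36 to 10.1), against 2.97%. In regions per Mb, the tiles stood 2.22 times above the background tiles for the knockdown, 4.77 times for H1 control, 4.33 times for IMR90 and 4.35 times for Saos-2. The chosen tiles were thus as rich in BrdU regions of fibroblasts and osteosarcoma cells as in those of the stem cells in which they were selected.

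Counting H1 control, IMR90 and Saos-2 together, 179 of the 300 tiles (59.7%, 54.0 to 65.1) held a BrdU region of at least 1 cell line, against 16.6% of the background tiles. In 35 tiles (11.7%, 8.51 to 15.8) all 3 cell lines had a region, against 2.25% of the background tiles. The next 300 tiles by rank were close to this, with 165 of 300 holding a region of at least 1 line and 33 (11.0%) of all 3, and the other tiles within 500 kb had 42.9% and 8.27%. A further 48 tiles had regions of 2 cell lines, 96 of 1, and 121 of none. A tile counts here wherever in its 50 kb the regions lie, so regions of different lines need not coincide.

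The 35 tiles with BrdU regions of all 3 cell lines were spread over 16 chromosomes. Chromosome 9 held 8 of them among its 24 selected tiles, chromosome 1 held 5 of 38, and chromosome 19 held 2 of 31. Their H1 H3K18ac cover, with a median of 4200 bp, was close to the 4100 bp of the 121 tiles without a BrdU region of any of the 3 lines. Their median IMR90 H3K18ac cover was 1400 bp, lower than the 2900 bp of those 121 tiles. Their median number of H1 H3K18ac regions was 14, above the 10 of those 121 tiles. Tiles with BrdU regions of 1 and of 2 lines had medians of 11 and 12 H1 H3K18ac regions. The 35 tiles include chr11:1550001-1600000, which had 3800 bp of H1 H3K18ac, none in IMR90, and BrdU regions in H1 control (3), IMR90 (2) and Saos-2 (2). They also include chr11:64300001-64350000, which had 3600 bp in H1, none in IMR90, and BrdU regions in IMR90 (5), Saos-2 (3) and H1 control (1). In contrast, chr1:16450001-16500000 had 3800 bp in H1 and 10000 bp in IMR90, with BrdU regions in Saos-2 (3), IMR90 (2) and H1 control (1).

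Where regions of different cell lines fell in the selected tiles, they coincided about as often as elsewhere. Of the 134 H1 control regions in the tiles, 30 (22.4%) overlapped an IMR90 BrdU region, against 20.9% of those outside. A Saos-2 region was overlapped by 43 of them (32.1%), against 34.6% outside. Of the 141 IMR90 regions in the tiles, 39 (27.7%) overlapped a Saos-2 region, against 26.8% outside. Mean region length was alike for H1 control, with 214 bp in the tiles and 213 bp outside. It was longer in the tiles for IMR90 (258 and 211 bp) and shorter for Saos-2 (286 and 331 bp).

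For H1 control, IMR90 and Saos-2 the share of tiles with a BrdU region differed between the most densely marked classes by no more than counting error. For H1 control it was 38% (29.1 to 47.8) in the first 100 tiles by rank, 30.0% in the next 100 and 29.0% (21.0 to 38.5) in the last 100. It was 31.7% (26.7 to 37.1) in the next 300 tiles, those ranked down to 600, within counting error of the 300 tiles. For IMR90 the share in these next 300 tiles was 30.7% and for Saos-2 it was 27.7% (22.9 to 33.0). At lower cover the shares were smaller: at ranks 4801 to 9600 they were 16.9% for H1 control, 19.1% for IMR90 and 17.5% for Saos-2. In the 27790 background tiles with no H1 H3K18ac H1 control had 3.11%, IMR90 2.90% and Saos-2 3.70%. The knockdown list had 10.0% (5.52 to 17.4) in the first 100 tiles, 6.0% in the next 100, 4.0% (1.57 to 9.84) in the last 100, 9.67% (6.82 to 13.5) in the next 300 after the selection, 5.94% at ranks 4801 to 9600 and 1.47% in tiles with none.

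**Figure D2:**
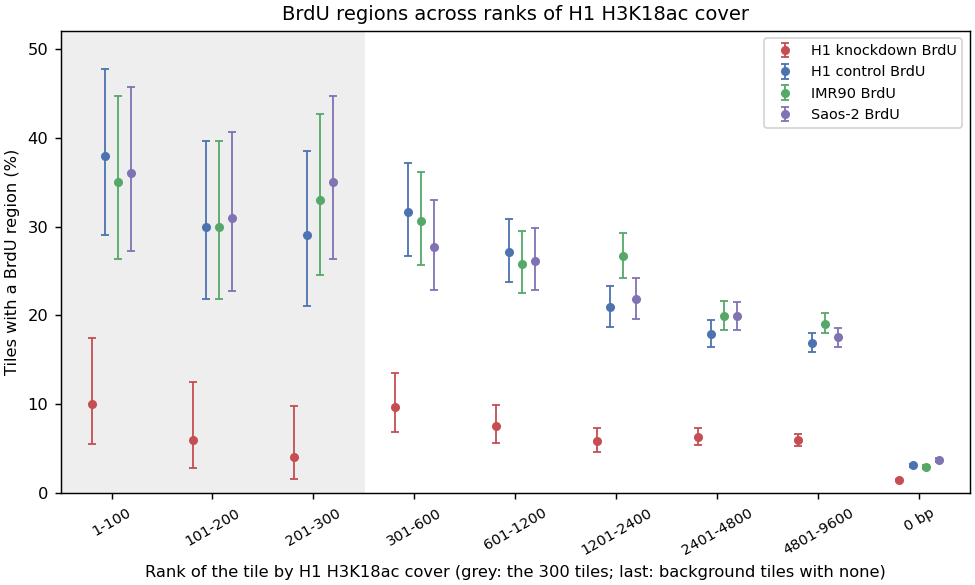
Percentage of tiles with at least 1 BrdU region (vertical axis) by rank of the tile in H1 H3K18ac cover (horizontal axis), for the 4 BrdU lists; bars are Wilson 95% intervals over tiles, and the last class is the 27790 background tiles without H1 H3K18ac. H1 control, IMR90 and Saos-2 lie between 27.7% and 38% at ranks 1 to 600 and between 2.90% and 3.70% in the last class.

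The surroundings of the tiles were also rich in BrdU regions, but not equally so for each list. For H1 control the share of tiles with a region was 32.3% in the 300 tiles, 26.8% in tiles next to them and 19.1% at 100 kb, and it varied between 13.9% and 22.7% from 150 to 500 kb with no steady order. For IMR90 it was 32.7% in the 300 tiles, 31.9% next to them, 30.5% at 100 kb, 34.1% at 150 kb, and between 21.6% and 30.6% from 200 to 500 kb. For Saos-2 it was 34.0% in the 300 tiles and between 20.7% and 26.3% at all distances from 50 to 500 kb. Over all 3846 other tiles within 500 kb, the density of regions in the 300 tiles was 1.84 times higher for H1 control, 1.11 times for IMR90 and 1.41 times for Saos-2. For the knockdown it was 0.990 times that of the surroundings: 6.67% (4.36 to 10.1) of the 300 tiles and 6.58% (5.84 to 7.41) of the surrounding tiles held a region. The 4.77-fold and 4.33-fold values against the whole background are thus partly shared by tiles up to 500 kb away. Those surrounding tiles were also richer in H1 H3K18ac than the background tiles. Their mean cover was 830 against 292 bp, and 81.4% against 47.3% held a region. The part of this cover in their BrdU shares was not tested.

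**Figure D3:**
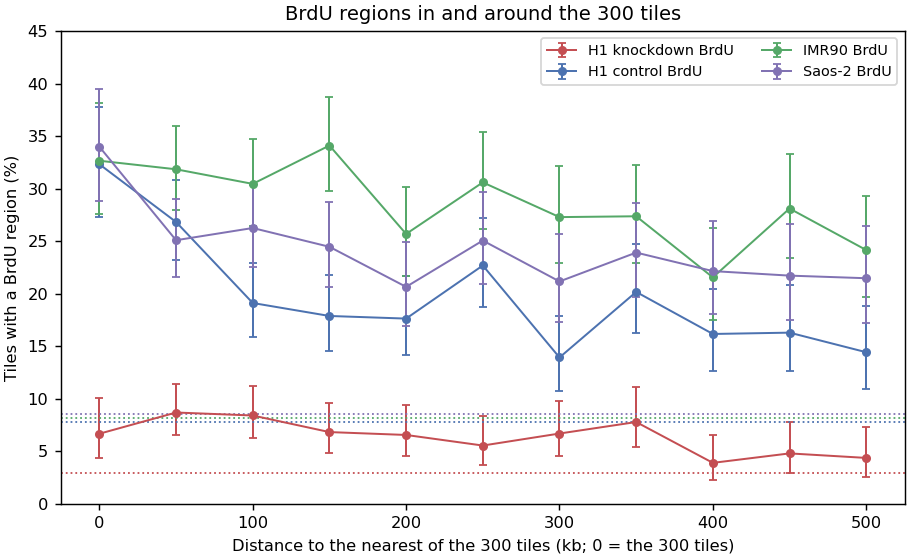
Percentage of tiles with at least 1 BrdU region (vertical axis) by distance in kb to the nearest of the 300 tiles (horizontal axis, 0 being the 300 tiles themselves), with Wilson 95% intervals over tiles; dotted lines are the percentages over all background tiles. From 100 kb on, H1 control lies between 13.9% and 22.7% and IMR90 between 21.6% and 34.1%.

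In these tiles the IMR90 BrdU share was higher near the first or last listed region of a chromosome. The Saos-2 share was also higher there, but with overlapping intervals. The shares of H1 control and the knockdown were not higher there. The first listed region need not lie at a chromosome end: on chromosome 22 it was 2563200 bp before the tile at 18900001 to 18950000. Among the 105 tiles within 5 Mb of the first or last listed region of a chromosome, IMR90 BrdU was found in 44.8% (35.6 to 54.3), against 25.1% of all background tiles there. Among the 195 tiles farther inside, it was found in 26.2% (20.5 to 32.7), against 6.59% of the background tiles there. For H1 control the shares were 30.5% of the 105 outer tiles, against 20.1% of the outer background, and 33.3% of the 195 inner tiles, against 6.69% of the inner background. For Saos-2 they were 42.9% (33.8 to 52.4) against 29.5% in the outer tiles and 29.2% (23.3 to 36.0) against 6.62% in the inner ones. The knockdown list had 3.81% (1.49 to 9.39) of the outer tiles, against 4.72% of the outer background, and 8.21% (5.11 to 12.9) of the inner tiles, against 2.81%. The part of position in the BrdU shares was not tested beyond this division.

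BrdU regions inside the 300 tiles lay on H1 H3K18ac regions more often than those of the whole lists. Of 134 H1 control regions in the tiles, 22 (16.4%, 11.1 to 23.6) overlapped an H1 H3K18ac region, against 8.9% of the list. Of 141 IMR90 regions, 26 (18.4%, 12.9 to 25.6) did, against 9.44%, and of 151 Saos-2 regions, 41 (27.2%, 20.7 to 34.7), against 12.7%. Of the 21 knockdown regions 4 did (19.0%, 7.67 to 40.0), against 1.87%. Since the tiles were chosen for dense H3K18ac, the overlap has to be read against their cover. H1 H3K18ac covered 9.28% of the base pairs of the 300 tiles, and it covered 16.7% of the H1 control BrdU base pairs there, 15.7% of those of IMR90 and 18.3% of those of Saos-2. These are ratios of 1.80, 1.69 and 1.97. In the rest of the genome the mark covered 0.534% of the background tiles and 8.27%, 7.39% and 8.20% of the BrdU base pairs of the same 3 lists, ratios of 15.5, 13.8 and 15.4. For the knockdown the ratio was 3.08 inside the tiles and 2.94 outside. The ratio inside the tiles was smaller than outside for the other 3 lists, but it divides by a cover that the selection made high. Most BrdU regions in the tiles did not overlap the mark. The median gap to the nearest H1 H3K18ac region was 1200 bp for H1 control, 700 bp for IMR90 and 600 bp for Saos-2.

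For H1 control, IMR90 and Saos-2, BrdU base pairs in the tiles lay in IMR90 H3K18ac less often than its cover of the tiles. It covered 7.22% of the base pairs of the 300 tiles, but 2.44% of the H1 control BrdU base pairs there (a ratio of 0.338), and for IMR90 and Saos-2 BrdU the ratios were 0.609 and 0.513. These ratios have no interval and rest on few regions. In the tiles, 6 of 134 H1 control regions (4.48%, 2.07 to 9.42) and 10 of 151 Saos-2 regions (6.62%, 3.64 to 11.8) overlapped IMR90 H3K18ac. In the other background tiles the ratios were 1.18 for H1 control, 1.03 for IMR90 and 0.910 for Saos-2. Of the 141 IMR90 BrdU regions in the tiles, 13 (9.22%, 5.47 to 15.1) overlapped H3K18ac of the same cell line, against 2.45% of the list. Counted by region, this overlap was thus more frequent in the tiles than in the whole list. H3K18ac of H1, on which the tiles were chosen, was overlapped by 26. The knockdown values, 28.6% of base pairs in H1 H3K18ac and 14.3% in IMR90 H3K18ac, rest on 4 and 3 regions.

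**Figure D4:**
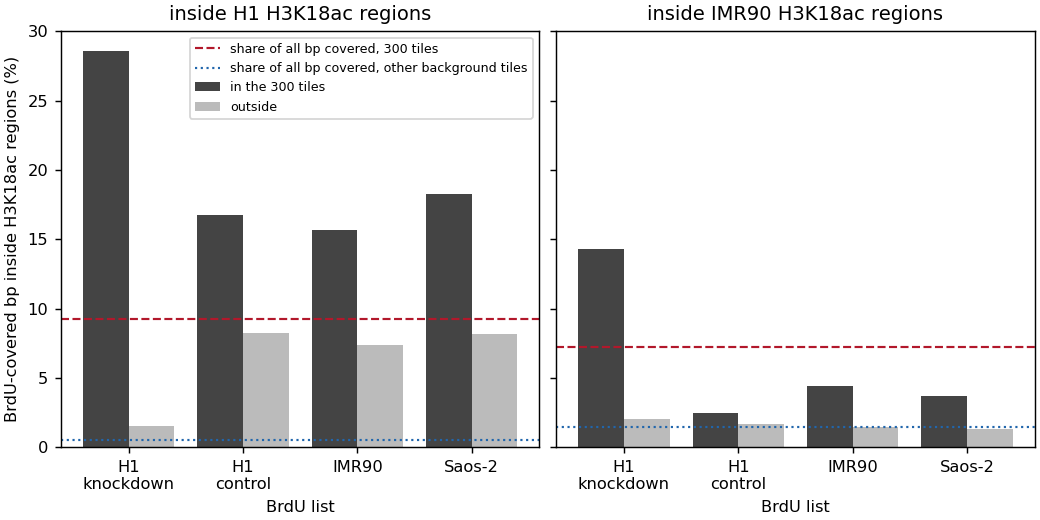
Percentage of BrdU-covered base pairs that lie in H1 H3K18ac regions (left) and in IMR90 H3K18ac regions (right), for BrdU regions in the 300 tiles (dark bars) and outside them (light bars); lines give the percentage of all base pairs covered by the mark in the 300 tiles (9.28% and 7.22%) and in the other background tiles. For H1 control, IMR90 and Saos-2 the dark bars stand above the dashed line on the left and below it on the right.

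The knockdown of EP300 and CREBBP was compared with the control at the same tiles. The knockdown list had 21 regions in the 300 tiles and the control list 135 (counted per tile, with 1 region lying in 2 adjacent tiles), a ratio of 0.156 (0.0986 to 0.245). In the other background tiles the ratio was 0.340 (0.321 to 0.359), in the other tiles within 500 kb 0.288 (0.252 to 0.330), and in the next 300 tiles by rank it was 0.246 (0.167 to 0.364). The knockdown list is shorter everywhere, and its number relative to the control was smallest in the 300 tiles among these sets, with an interval that overlaps that of the next 300. Position differs between the sets, with 35.0% of the 300 but 8.33% of the background tiles within 5 Mb of a chromosome's first or last listed region. Background tiles there held 223 knockdown and 1169 control regions, and those farther inside held 1441 and 3804. The part of position in the ratios was not tested. Of the tiles, 10 had regions of both lists, 10 of the knockdown alone and 87 of the control alone. Among tiles with a control region, 10.3% of the selected tiles also had a knockdown region, close to the 11.4% among all background tiles. The control regions themselves were found again as seldom here as elsewhere: 4 of the 134 in the tiles (2.99%) overlapped a knockdown region, against 3.11% of those outside.

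The 4 places where both H1 lists had a region were on chromosomes 9 and 21. At chr21:44580201-44580400 a knockdown region of 200 bp lay inside a control region of 700 bp (44580001 to 44580700) and inside an H1 H3K18ac region (44579301 to 44580500), and IMR90 and Saos-2 had BrdU regions there as well. It had the highest score of the knockdown regions in the tiles. At chr21:46752301-46752500 a knockdown region lay 100 bp from the nearest H1 H3K18ac region and was shared with control and Saos-2. At chr9:133330101-133330200 the knockdown region of 100 bp lay wholly in H1 H3K18ac. At chr9:139474301-139474500 it lay 500 bp away from the mark. The remaining 17 knockdown regions had no control counterpart, such as the one at chr11:62623601-62624000, whose 400 bp lay wholly in H1 H3K18ac and in part in IMR90 H3K18ac. In all, 19.0% of the knockdown regions in the tiles overlapped a control region, against 9.32% of those outside, a share that rests on 4 regions.

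The BrdU regions of highest score showed how cell lines met in these tiles. In chr1:41950001-42000000, ranked 208 by H1 H3K18ac with 3900 bp, the IMR90 region at 41991801 to 41995200 had the highest score of its list. It coincided with an H1 control region at 41991901 to 41994900 and with 3 Saos-2 regions between 41992001 and 41995500. H1 H3K18ac regions lay in the same stretch, the first at 41991901 to 41992400, and no IMR90 H3K18ac region overlapped it. The knockdown list had a single region in this tile, at 41985601 to 41985700, 6200 bp from the nearest H1 H3K18ac region. The highest-scoring Saos-2 region of the tiles, chr17:79498001-79499700, overlapped BrdU regions of H1 control and IMR90 and H1 H3K18ac. Of the 3493 H1 H3K18ac regions in the tiles, 68 (1.95%) overlapped a BrdU region of any list. The same share was not computed outside the tiles, so it cannot be called high or low. Like most of the 3493, the 3 of highest score overlapped no BrdU region. They were chr7:104652401-104656000, chr6:32937101-32939600 and chr2:232570401-232572700, and all 3 overlapped IMR90 H3K18ac.

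The tiles with most BrdU regions were found at ranks 2 to 298 of H1 H3K18ac cover. The knockdown list had 2 regions in the tile ranked 9, chr7:5450001-5500000, and at most 1 in every other tile. Among tiles with most control BrdU regions was chr10:134200001-134250000 (ranked 61), with 4 regions in H1 control, 2 in IMR90 and 5 in Saos-2, and none in the knockdown. The tiles chr1:203450001-203500000 and chr21:46750001-46800000 also had 4 control regions each. IMR90 BrdU regions were most numerous in chr12:124950001-125000000 (ranked 80), with 6 regions, beside 2 in H1 control and 2 in Saos-2. The tile ranked 2 had 5 IMR90 regions, and in chr22:50650001-50700000 (ranked 243) there were also 5 IMR90 regions and 1 each in H1 control and Saos-2. Saos-2 BrdU regions were most numerous in the chromosome 1 tile ranked 208, with 6 regions. By covered base pairs, that tile had most BrdU in H1 control (3600 bp), IMR90 (3500 bp) and Saos-2 (2700 bp). In chr1:1500001-1550000 (ranked 169) the 4 Saos-2 regions were the only BrdU regions, and IMR90 H3K18ac was absent. Regions of all 4 BrdU lists occurred in 6 tiles (2.0%, 0.92 to 4.29), of which 3 were on chromosome 9. They occurred in 0.381% of the background tiles. The next 300 tiles by rank had 3 such tiles, and the other tiles within 500 kb had 46 of 3846. The intervals of both these sets overlap that of the 300 tiles.

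In the 3 tiles of chromosome 9 with regions of all 4 lists, the lines met at some positions and not at others. In chr9:132200001-132250000 (4200 bp of H1 H3K18ac, 7700 bp in IMR90), a BrdU region at 132219001 to 132219800 was listed with the same ends in H1 control, IMR90 and Saos-2, 1600 bp from the nearest H1 H3K18ac region. The knockdown region of this tile, 100 bp at 132212601 to 132212700, began 100 bp beyond the end of a control region at 132212401 to 132212500 without overlapping it. In chr9:139000001-139050000 (4400 bp in H1, 1400 bp in IMR90), the knockdown region at 139042401 to 139042500 was listed with the same ends in Saos-2, and a control region at 139017101 to 139017200 was also listed with the same ends in Saos-2. The IMR90 BrdU regions of that tile lay elsewhere. In chr9:133300001-133350000 (5100 bp in H1, 100 bp in IMR90), knockdown, control and Saos-2 regions all began at 133330101, while the IMR90 region lay at 133339201 to 133339600.

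**Figure D5:**
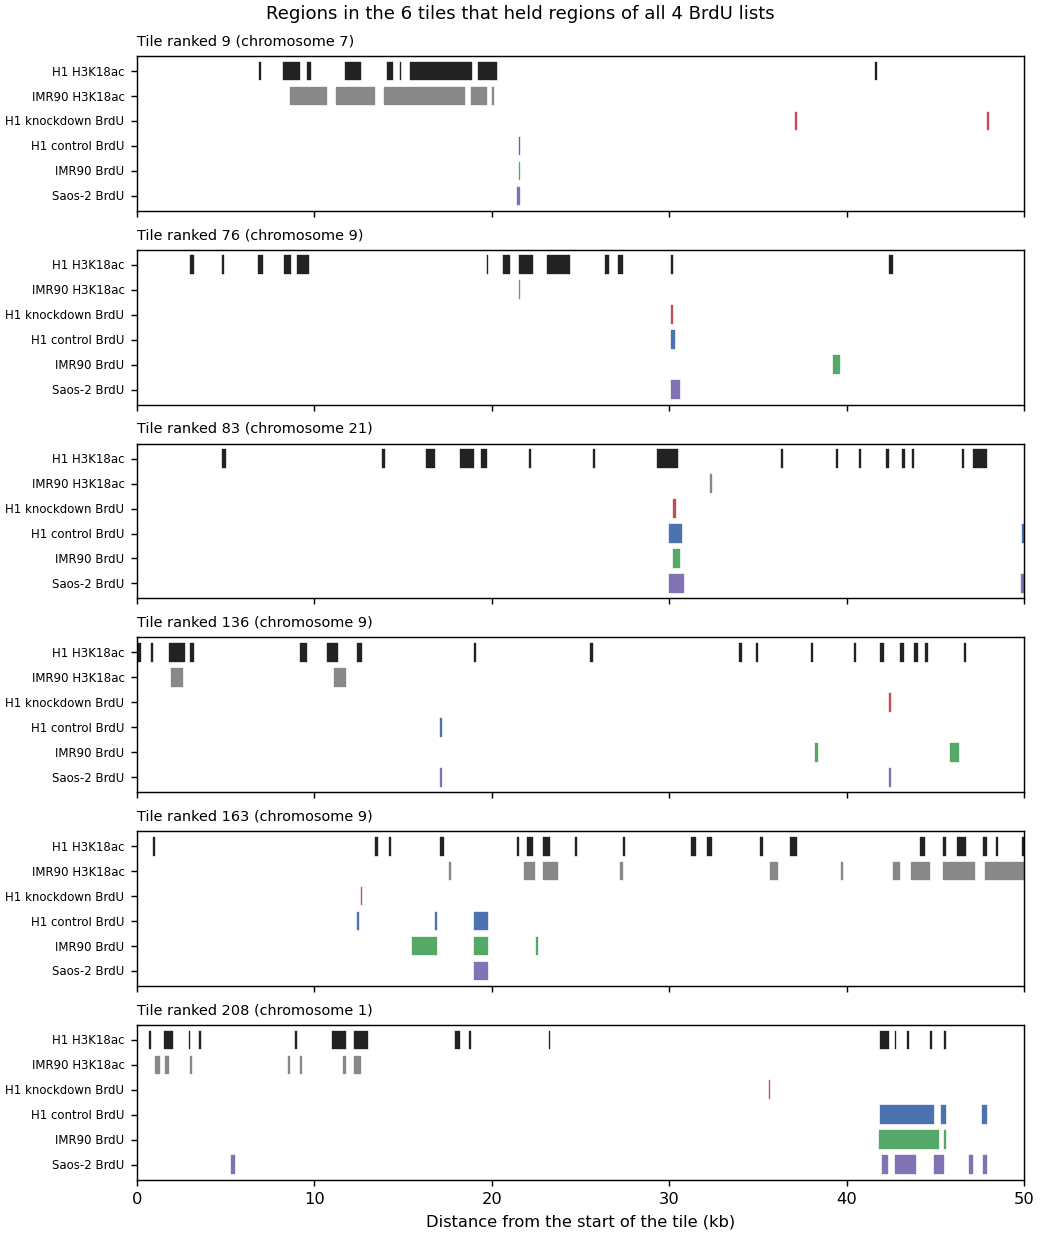
Regions of all 6 lists in the 6 tiles with regions of all 4 BrdU lists; the horizontal axis is the distance from the start of the tile in kb, each row is a list, and each bar spans a region. In the tile ranked 83 all 4 BrdU lists have a region at about 30 kb that overlaps an H1 H3K18ac region, while in the tile ranked 9 both knockdown regions lie 4400 bp or more from the mark.

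The 300 tiles densest in IMR90 H3K18ac, chosen in the same way from the IMR90 list, served as a comparison. Only 13 tiles belonged to both sets. H1 control BrdU was found in 32.3% of the tiles densest in H1 H3K18ac, against 12.0% (8.80 to 16.2) of those densest in IMR90 H3K18ac. IMR90 BrdU was found in 32.7% of the tiles densest in H1 H3K18ac, against 12.3% (9.08 to 16.5), and Saos-2 BrdU in 34.0%, against 11.0% (7.94 to 15.0). For the knockdown the shares were 6.67% and 5.33% (3.31 to 8.49). All 3 cell lines had BrdU in 35 tiles of the H1 set and in 11 of the IMR90 set. H3K18ac of the fibroblasts thus marked tiles with fewer BrdU regions than H3K18ac of the stem cells did, also for the BrdU regions of the fibroblasts themselves. The sets differ in extent of cover as well, with 9.28% of the base pairs of the H1 set in H1 H3K18ac and 31.6% of those of the IMR90 set in IMR90 H3K18ac, and the part of this in the BrdU shares was not tested.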

How the data were processed

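The values used were 6 deposited region lists, 1 per pulled-down library. Reads had been aligned with Bowtie 0.12.7 to hg19, per the submitters' processing notes; the region caller, its threshold, duplicate handling and the use of inputs are not stated in the notes or labels used. All region ends lie on a grid of 100 bp. Each region carries a score deposited by the authors, of unstated meaning, which served only to rank regions within a list.

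Cover was summed per 50 kb tile in Python 3.11.15 (numpy 2.4.6, pandas 2.3.3, scipy 1.17.1, matplotlib 3.10.9), with both region ends included. A region belonged to each tile it shared at least 1 bp with. Background tiles lie in 500 kb bins with a region of any list. The overlap code was checked on simulated lists. Named tiles were the 10 with most H1 cover, 5 with most and 5 with no IMR90 cover, 3 per BrdU list with most regions, those with all 4 BrdU lists, the 2 on either side of the edge and the highest-scoring regions. The members, rules and alternatives were chosen with earlier results of these data known. Planned gene lists and marker checks were not run, since no hg19 annotation was used, and no sequence is shown for the same reason. With 1 library per group there is no replicate error and no p-value.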

Additional observations from a re-analysis of the deposited data

How the results depend on the processing

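Of 209 values under 15 alternatives, 166 stayed within their interval (for ratios and the count of common tiles, within 1.5 times) and 2 changed direction. Both concern the knockdown density ratio, 2.22 against all background tiles, which was 0.990 against other tiles within 500 kb and 0.677 against the next 300 tiles by rank. Against tiles with a region of any list the ratios became 1.43 for the knockdown, 3.08 for H1 control, 2.79 for IMR90 and 2.81 for Saos-2 BrdU, 2.49 for IMR90 H3K18ac regions and 3.15 for its cover. Against other tiles within 500 kb they became 1.84, 1.11 and 1.41 for control, IMR90 and Saos-2 BrdU, and against the next 300 tiles they became 1.07, 1.01 and 1.25, with 1.44 for IMR90 H3K18ac regions and 1.59 for cover. Tile size sets the shares by construction. With 150 tiles of 100 kb, the knockdown, control, IMR90 and Saos-2 BrdU and IMR90 H3K18ac were found in 16%, 49.3%, 55.3%, 48.7% and 98.0% of tiles, and with 600 tiles of 25 kb in 3.67%, 17.3%, 17.3%, 14.5% and 82.2%. Tiles ranked by number of H1 regions gave 38.3% for control, 45.7% for IMR90 and 40.7% for Saos-2 BrdU and 82.0% for IMR90 H3K18ac. The upper 50% of a list by score gave 15.3%, 20.3%, 18.3% and 83.7% in the same order, and 27.7% of control and 36.1% of Saos-2 regions then overlapped H1 H3K18ac. The grid moved by 25 kb gave 94.7% for IMR90 H3K18ac. With the densest 150 tiles 35.2% of Saos-2 regions overlapped the mark. The tiles common to the H1 and IMR90 sets numbered 3 with the densest 150, 42 with the densest 600, 8 with tiles of 100 kb and 26 with tiles of 25 kb. Without tiles within 5 Mb of a chromosome's first or last region, an alternative added after the data were seen, IMR90 BrdU was found in 26.2%. Except where stated, the cause was not tested. No paired analysis was possible because each group has 1 library. Depth is unknown and limits every absence from a list.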

Other observations

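The 300 tiles reach their H3K18ac cover in different ways, from a few long regions to many short ones. IMR90 BrdU was found more often in tiles with many, and the other BrdU lists went the same way with overlapping intervals. This division by number of H1 regions uses the list that chose the tiles and was made after the data had been seen. IMR90 BrdU was found in 62 of the 144 tiles with more than 11 H1 H3K18ac regions (43.1%, 35.3 to 51.2), against 36 of the 156 tiles with 11 or fewer (23.1%, 17.2 to 30.3). Saos-2 BrdU was found in 39.6% of the tiles with more regions (32.0 to 47.7), against 28.8% (22.3 to 36.4) of those with fewer, and H1 control BrdU in 36.8% (29.4 to 44.9) against 28.2% (21.7 to 35.7). IMR90 H3K18ac was present in 91.0% of the tiles with more regions and 90.4% of those with fewer. The knockdown had 7.64% (4.32 to 13.2) against 5.77% (3.06 to 10.6). Tiles with more regions also had more H1 H3K18ac cover, with means of 4959 against 4348 bp. The median number of H1 regions was 13 in tiles within 5 Mb of a chromosome's first or last listed region and 11 farther inside. The part of cover and position in these shares was not tested. No test was made, since tiles of 1 library are not replicates.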
